A study of Prunus persica with 2 samples.

Results

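Wounded peach (Prunus persica) fruit yielded 3425 newly assembled transcripts that carry the name of an annotated gene, out of 51199 transcripts listed. They were chosen as the transcripts whose own name begins with MSTRG and whose gene name begins with Prupe, the prefix of the annotated peach genes. They belong to 2628 of the 26873 annotated genes, and the annotation itself supplies 47051 transcripts. The samples were RNA from wound tissue of peach fruit kept at 28 °C and 95% relative humidity. The control wound received 30 μL of sterilized water and the treated wound 30 μL of a suspension of the yeast Pichia membranaefaciens, and both were taken 3 days later. Each group is 1 library, about 26800000 fragments in the control and 25100000 in the yeast library, so no difference could be set against the spread between fruit and no test was possible. The number of fruit behind each library, the cultivar and the strain of yeast are not given in the labels.

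A gene can give several mature RNAs. Introns may be removed or kept, exons joined or skipped, and transcription may start or stop at different places. In flowering plants a retained intron is a common form of such variation, and many transcripts that keep one carry an early stop codon. Gene models made by an annotation project are incomplete in part, so an assembly from the reads of one tissue can add ends, exons or joins that the models lack. The identifiers in the files are paired with no gene names or products, and 0 of them matched the RefSeq gene table of the Prunus_persica_NCBIv2 assembly, so loci are given by position and roles cannot be stated. For the same reason the labelled tissue could not be checked against marker genes.

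Most of the new transcripts were isoforms in the plain sense, but not all. Of the 3425, 3082 (89.99%) lay on the strand of their gene and overlapped it, and these are called same-strand isoforms here. A further 221 lay across the gene on the opposite strand, 89 had no strand listed, and 33 lay on the strand of the gene but outside its annotated span. The name "isoform" does not describe these 343 transcripts, though the files count them under the gene. No source used here says whether the libraries kept strand, so reads of the 2 strands cannot be told apart at such places. In number, 2088 genes had 1 new transcript, 540 had 2 or more, and the most in a gene was 10.

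The new transcripts often carried most of the measured RNA of their gene. Levels are FPKM, fragment numbers scaled for transcript length and library depth, and the share of a transcript is its FPKM as a percent of the FPKM of all transcripts with the same gene name. A total of at least 5 FPKM in both libraries was reached by 9774 genes, of which 1816 (18.6%) had a new transcript, 2517 new transcripts in all. The other 812 genes with 908 new transcripts fell under this limit, and the lower of the 2 totals was 5.0003 FPKM for the last gene inside it and 4.9993 FPKM for the first outside. In the control library the summed share of new transcripts had a median of 70.2% over the 1816 genes, with quartiles of 38.2% and 92.9%. In the yeast library the median was 70.3%, with quartiles of 38.96% and 92.7%. The assembly was made from reads, so a transcript had to be expressed to be listed, and a high share is in part built into the selection.

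In 1069 of the 1816 genes (58.9%) the new transcripts held 50% or more of the total in both libraries, in 239 in a single library, and in 508 in neither. They held 90% or more in both libraries in 457 genes and under 10% in both in 62. The annotated transcripts of 384 genes summed to less than 1 FPKM in both libraries, and those of 77 were listed at 0 in both. One and the same new transcript was the most abundant of its gene in both libraries in 1032 genes (56.8%), and an annotated transcript in 443.

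The share of new transcripts was higher in genes with a single annotated transcript. Among genes with 1 annotated transcript the median summed share was 82.1% in the control and 82.7% in the yeast library. Among genes with 3 or more it was 61.0% and 59.8%. By abundance, 23.6% of 4877 genes with a mean total of 5 to 20 FPKM had a new transcript, compared with 13.95% of 3935 genes from 20 to 100 FPKM and 11.2% of 916 from 100 to 1000 FPKM. By structure, 7.45% of 738 single-exon genes had one, compared with 21.8% of 2583 genes with 10 or more exons.

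Shares in the control and the yeast-treated wound lay close together for most genes. The difference was under 5 percentage points in 1039 genes (57.2%), under 10 in 1343 (73.95%), and its median size was 3.67 points. Across the 1816 genes, which are not independent replicates and share both libraries, Pearson's r of the 2 shares was 0.85 and Spearman's rho 0.88.

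**Figure D1:**
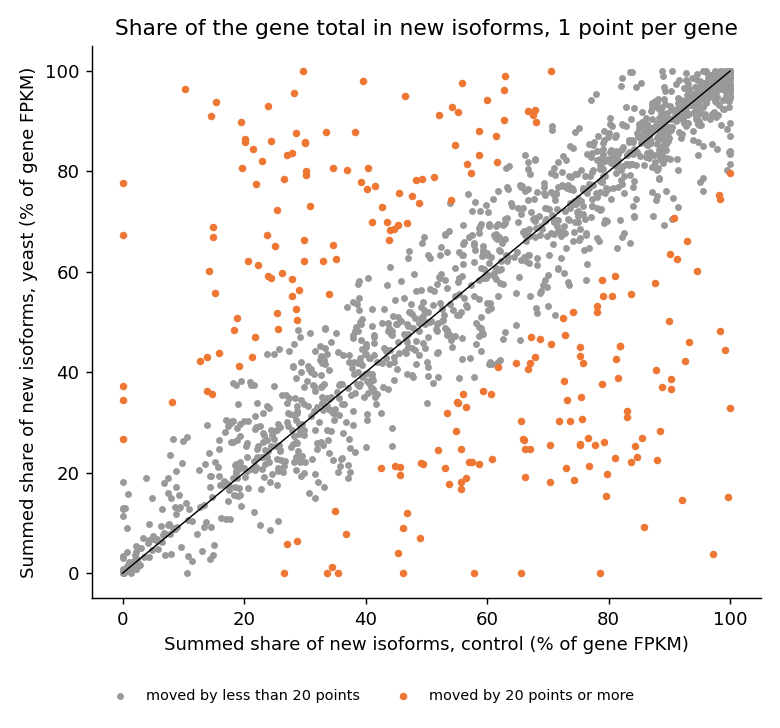
Summed share of new transcripts in the total FPKM of their gene, in the control library (horizontal, %) and the yeast library (vertical, %), with 1 point for each of 1816 genes and a line of equal shares. Most points lie along the line, and the 232 genes that moved by 20 percentage points or more lie on both sides of it, 109 above and 123 below.

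In structure the same-strand isoforms as a group resembled the gene models in median length and median exon number, though single isoforms often differed from their gene. Their median length was 1989 bases, and that of the leading annotated transcripts of their genes 1853 bases, with a median of 6 exons each. Compared with the nearest exon number among the annotated transcripts of the gene, 1216 of the 3082 (39.5%) had the same number, 808 had 1 exon fewer and 469 had 1 more. The range ran from 33 exons fewer to 13 more. Set against the whole range of the gene, 1063 had fewer exons than any annotated transcript, 1288 lay within the range and 731 had more.

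Set against the outermost ends over all annotated transcripts of the gene, isoform ends lay inside more often than beyond, but by shorter distances. An end inside this span can still be that of an annotated transcript. Both ends of some annotated transcript were kept by 329 isoforms, while 195 had both ends at the outermost boundaries. At the 5′ end, 1601 isoforms began inside the annotated gene, 662 at its annotated boundary and 819 beyond it. At the 3′ end, 1579 stopped inside, 665 at the boundary and 838 beyond. Where the end lay inside, the median distance was 102 bases at the 5′ end and 133 bases at the 3′ end. Where it lay beyond, the medians were 707 and 677 bases. An end called from reads is not a mapped start or poly(A) site, and coverage thins out toward the ends of a fragmented RNA.

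A few isoforms reached very far. In 111 (3.60%) an end lay 10 kb or more beyond the annotated gene, the 5′ end in 62 and the 3′ end in 56, some at both, and the farthest by 342143 bases. These had a median of 4 exons, below the 6 of all same-strand isoforms. In genes over the 5 FPKM limit, 82 of them held a median share of 22.2% in the control and 24.5% in the yeast library. Of the 82, 12 were listed at 0 in one library and above 0 in the other, with no count over all isoforms beside it. The share moved by 20 percentage points or more in 11 of the 82 (13.4%), and in 13.5% of all 2296 same-strand isoforms in such genes.

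**Figure D2:**
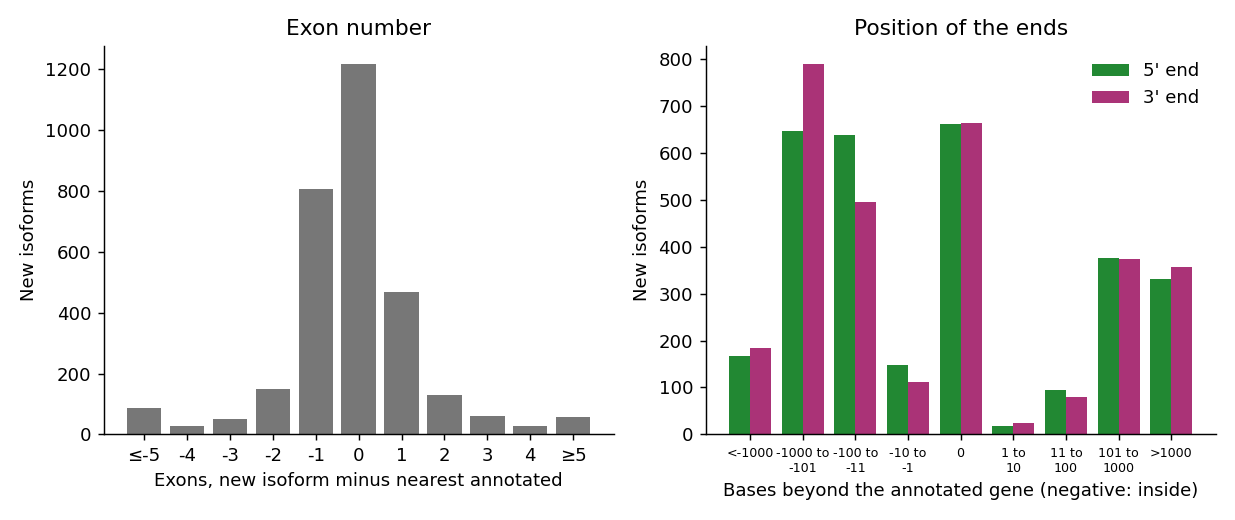
Structure of the 3082 same-strand isoforms: exon number minus the nearest annotated exon number of the gene (left, classes of 5 or more pooled), and bases by which the 5′ and 3′ ends lie beyond (positive) or inside (negative) the annotated gene (right, bars are numbers of isoforms). The same exon number was most frequent, with 1216 isoforms, and ends inside the gene outnumbered ends beyond it.

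Some isoforms kept both ends of an annotated transcript exactly, which leaves splicing as the recorded difference. There were 329 of these, and the most distinct group had fewer exons and yet a longer RNA, as a retained intron would give. It counted 113 isoforms (34.3%), of which 87 had exactly 1 exon fewer and were longer by a median of 179 bases (quartiles 96.5 and 388). The reverse, more exons and a shorter RNA, was seen in 29, and in the 25 of them with 1 exon more the loss had a median of 127 bases. A further 23 had fewer exons and were shorter, as exon skipping would give, and 21 had more exons and were longer. The files list exon numbers and lengths but no exon positions, so these names are read from the counts alone.

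The largest group of the 329 had the same exon number as its partner. These 143 isoforms, 79 longer and 64 shorter, differed by a median of 46 bases, as a shifted splice site would give, and 37 differed by 10 bases or fewer. A difference of 3 bases was seen in 6, of 4 bases in 5 and of 5 bases in 8. The difference was a multiple of 3, which keeps the reading frame where it falls in coding sequence, in 47 (32.9%), beside 33.3% if frame played no part.

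Isoforms of different structure held different parts of the gene total. Single-exon isoforms, 244 in all and each in a gene whose annotated transcripts have 2 or more exons, had the highest median, with 94.98% in the control and 93.8% in the yeast library over the 83 in genes above the limit. Isoforms beyond the gene at both ends held a median of 70.96% and 69.1% (225 isoforms), and those inside it at both ends 42.5% and 42.1% (904). Among isoforms with unchanged ends, those with fewer exons and a longer RNA held 49.8% and 53.8% (99), and those with the same exon number 33.99% and 34.3% (135). Transcripts on the opposite strand held 14.8% and 13.3% (167). These groups overlap in part, and none of the differences between them was tested.

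**Figure D3:**
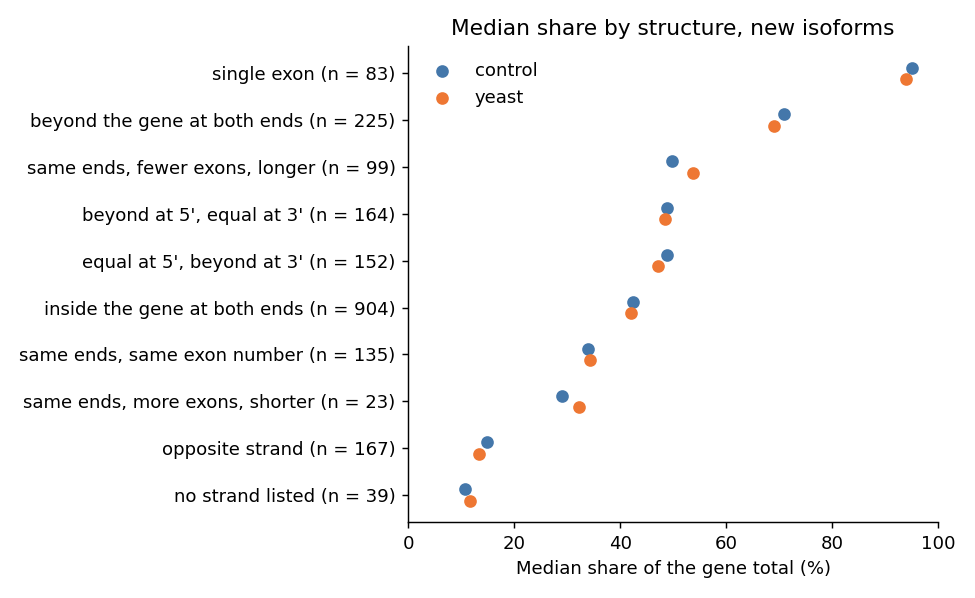
Median share of the gene total (%) held by single new transcripts of each structure, in the control and the yeast library, for transcripts in genes with 5 FPKM or more in both libraries; n is the number of transcripts. The order of groups is the same in both libraries, from 94.98% for single-exon isoforms down to 10.6% for transcripts with no strand listed.

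The most abundant genes led by a new transcript show several of these forms. At Pp03, 23349261 to 23351415 (plus strand), a gene of 5 exons had totals of 904 FPKM without the yeast and 951 FPKM with it. All of it was assigned to a new isoform of 5 exons and 1348 bases, which reached 826 bases beyond the 5′ end and 433 bases beyond the 3′ end. Its annotated transcript of 753 bases was listed at 0 in both libraries.

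A 2-exon gene at Pp08, 16950817 to 16951566 (plus strand), had totals of 634 and 480 FPKM. A single-exon isoform of 957 bases held 98.96% of the control total and 98.8% of the yeast total. For a gene at Pp03, 5490339 to 5492764 (plus strand), totals were 958 and 891 FPKM, and an isoform of 5 exons held 97.6% and 97.2%. It began 762 bases inside the gene and ended 1723 bases beyond it, across a neighbouring annotated gene.

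The largest total of this kind, at Pp01, 44179629 to 44185073 (plus strand), was 1374 FPKM without the yeast and 1188 FPKM with it. An isoform of 9 exons held 88.9% of the control total (counting interval 88.6% to 89.1%) and 99.0% of the yeast total (98.9% to 99.1%). It began 60271 bases beyond the 5′ end of this 7-exon gene, and its span covers 4 other annotated genes of the same strand, although its spliced length of 1448 bases is below the 1583 bases of the model. Intervals are exact (Clopper-Pearson, 95%) on estimated fragments, with the lengths held fixed, and cover counting error only.

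The other 2 were no isoforms of the gene whose name they carry. At Pp02, 24123818 to 24126595, a single-exon transcript held 99.8% and 99.6% of the 524 and 598 FPKM listed under the gene. It lies further downstream, at 24127296 to 24128451, outside the gene. The leading annotated transcript of that gene had 1.07 and 1.99 FPKM. At Pp01, 34001395 to 34001520, a model of 126 bases shared its total of 1203 and 1122 FPKM with a transcript of 494 bases on the opposite strand, which held 71.3% and 70.3%.

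Where ends were kept, small internal changes could carry nearly the whole total. For the gene at Pp06, 27559309 to 27561469 (plus strand), the annotated transcript has 2 exons and 2047 bases and the isoform 3 exons and 1924 bases. The isoform held 97.3% of 304 FPKM without the yeast and 96.4% of 237 FPKM with it. Within Pp03, 289158 to 289878 (plus strand), the annotated transcript has 2 exons and 699 bases and the isoform a single exon of 721 bases. The isoform held 99.1% of 235 FPKM and 97.9% of 173 FPKM, so most reads were assigned to a form in which the annotated gap of 22 bases is filled.

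The ends of the isoform could also lie slightly inside a long gene. A gene at Pp04, 2281432 to 2286580 (plus strand), had totals of 477 FPKM without the yeast and 256 FPKM with it. An isoform of 9 exons, 24 bases longer than the leading annotated transcript with the same ends, held 55.4% and 51.4%. In another gene of Pp04, 17646128 to 17653343 (plus strand), an isoform of 9 exons beside models of 10 and 11 exons held 86.9% of 159 FPKM and 87.9% of 174 FPKM. Both libraries gave nearly the same division in each of these genes.

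Large gains and losses of exons were seen as well. At Pp04, 16239644 to 16242980 (plus strand), an isoform of 14 exons beside a model of 8 took all of 20.95 FPKM without the yeast and 99.98% of 21.5 FPKM with it. It extends across 1 neighbouring gene. Within Pp07, 8073831 to 8074825 (plus strand), an isoform of 6 exons beside a single-exon model held 98.1% of 41.4 FPKM and 96.7% of 43.8 FPKM. In the other direction, at Pp01, 45630170 to 45647776 (minus strand), a model of 21 exons had a leading isoform of 4 exons with 53.4% of 84.6 FPKM and 56.3% of 88.8 FPKM. That short form lies at the 3′ end of the gene. Other new isoforms of this gene have 21 exons and the ends of the model, with 33.95% and 6.40% in the control and 31.2% and 5.77% in the yeast library. By fragments the first of these led, with about 4454 beside 2098 of the short form in the control and 4019 beside 2173 in the yeast library. A further gene of Pp07, 15351630 to 15358312 (plus strand), with a model of 17 exons, had a leading isoform of 6 exons at its 5′ end with 71.5% of 27.3 FPKM and 57.1% of 31.6 FPKM.

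Isoforms that join neighbouring gene models made up a group of their own. In 323 same-strand isoforms (10.5%) the span covered at least 50% of the own gene and 50% of at least 1 other annotated gene of that strand, 262 with 1 neighbour and 61 with more. A neighbour inside the span can lie in an intron, and exon numbers help to sort this out. In 146 of the 262 (55.7%) the exon number was within 1 of the sum of both models, and in 64 it equalled that sum. At the start of Pp01, for example, a transcript from 40340 to 69896 has 24 exons, and the 2 models it covers together have 24. Its level was 15.3 FPKM without the yeast and 17.5 FPKM with it, 95.2% and 95.95% of the summed FPKM of both genes. This example and the next were chosen after their values were seen.

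Some joined transcripts lay across an annotated neighbour whose own transcripts were assigned almost no signal. Reads over such a neighbour can be counted under the joined transcript, so a low value need not mean a silent gene. At Pp01, 26817337 to 26819180 (plus strand), a joined transcript of 5 exons reached 73.3 FPKM without the yeast and 62.1 FPKM with it, and the transcripts named for its neighbour were under 0.001 FPKM in both. Of 62 joined transcripts with a matching exon sum and at least 5 FPKM in both libraries, 29 had such a neighbour under 1 FPKM in both libraries. No share of all annotated genes under 1 FPKM is given beside this. Low signal was frequent in general, as 9774 of 26873 annotated genes reached a total of 5 FPKM in both libraries. In the authors' deposited gene table, 25 of these 29 neighbours are listed at 5 FPKM or more in both. The neighbour in the example stands there at 72.7 and 61.4 FPKM, close to the level of the joined transcript. At some joined loci that table gives neighbouring genes the same value. A value in it therefore need not describe the neighbour by itself. Over the 113 joined transcripts with a matching exon sum and a combined total of 5 FPKM in both libraries, the median share of that total was 33.8% in the control and 31.4% in the yeast library.

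Differences between the wounds were then counted for the new transcripts. The summed share was higher with the yeast by 20 percentage points or more in 109 of 1816 genes and lower in 123, together 232 genes (12.8%). On the log2(FPKM + 1) scale the gene total lay within 1 of its control value in 227 of the 232 and moved by 1 or more in 5. Counted singly, 150 of 2517 new transcripts (5.96%) moved up by 20 points and 169 (6.71%) down. The same rule moved 3.86% of all 19912 transcripts of genes with at least 2 transcripts up and 4.04% down. Among annotated transcripts of genes with no new transcript these were 3.61% and 3.77% of 12929. A transcript with a small share cannot fall by 20 points, and the new transcripts held larger shares, so the percentages of single transcripts are not matched.

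A count over genes removes part of that difference. Some transcript of the gene moved by 20 points or more in 336 of 1816 genes with a new transcript (18.5%) and in 516 of 3834 genes with 2 or more annotated transcripts alone (13.5%). With 2 transcripts in the gene the figures were 9.75% of 708 and 4.52% of 1837 genes, with 3 they were 18.2% of 434 and 15.3% of 902, with 4 they were 27.8% of 223 and 22.1% of 439. With 5 or more they were 27.9% of 451 and 30.2% of 656. Whether these percentages differ beyond the variation between libraries of one treatment cannot be told with 1 library each.

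Genes with many exons moved more often. The summed share of new transcripts moved by 20 points in 3.64% of 55 single-exon genes, 5.32% of 395 genes with 2 to 3 exons, 11.8% of 804 with 4 to 9 and 20.3% of 562 with 10 or more. Counting a move of any transcript of the gene, the percentages were 7.27%, 9.62%, 18.0% and 26.5% in the same order. Among genes with no new transcript they were 3.57% of 28, 10.4% of 605, 12.4% of 1861 and 16.5% of 1340.

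**Figure D4:**
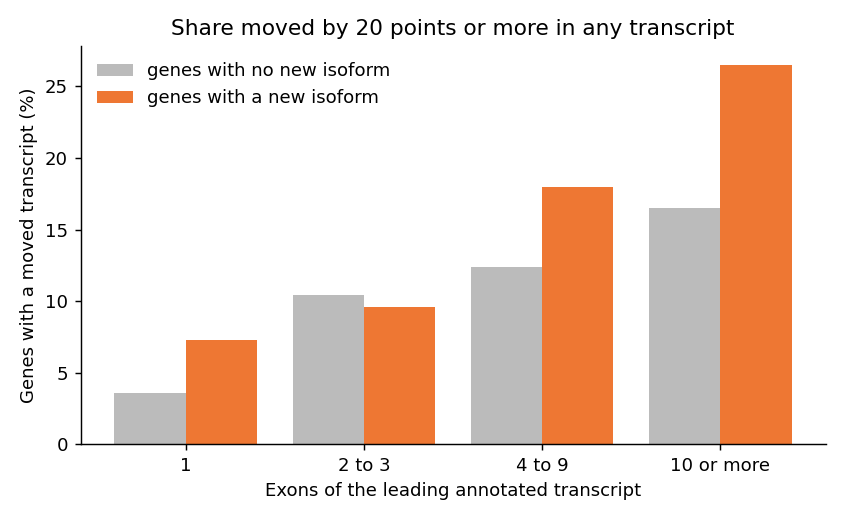
Percent of genes in which the share of any transcript moved by 20 percentage points or more between the control and the yeast library (vertical), by exon number of the leading annotated transcript (horizontal), for genes with and without a new transcript. Bars are single percentages with no replicate error; with 10 or more exons they stand at 26.5% and 16.5%.

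Structure also went with how often shares moved. Isoforms inside the gene at both ends moved by 20 points in 16.7% of 904 cases, 68 up and 83 down. Isoforms with both ends kept moved in 7.69% of 299, 14 up and 9 down, and single-exon isoforms in 4.82% of 83. Among the isoforms with kept ends, fewer exons and a longer RNA, 6 of 99 moved up and 2 down. Over all 2296 same-strand isoforms in genes above the limit, 13.5% moved, in both directions together. The background over all transcripts, which held smaller shares than the new ones, was 7.89%.

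The 2 largest rises and falls among the 608 genes with 20 FPKM or more in both libraries were at genes of differing structure. In Prupe.1G284300, at Pp01, 28592036 to 28593888 (minus strand), the total was 126 FPKM without the yeast and 125 FPKM with it. The new isoform of 2 exons held 10.3% (9.55% to 11.02%) and then 96.5% (95.95% to 96.9%), and the single-exon model held the rest. The isoform starts 1133 bases beyond the 5′ end of the model and shares its 3′ end. Their lengths of 1991 and 1853 bases differ by only 138 bases. How many fragments fit 1 form alone is not known, and the intervals take the assignment of fragments as given. In Prupe.4G154400, at Pp04, 8842568 to 8847381 (plus strand), totals were 23.8 and 20.1 FPKM. Its isoform of 6 exons, which starts 11284 bases beyond the 5′ end, stood at 0 in the control and held 77.8% (74.98% to 80.4%) in the yeast library. The annotated transcript that ends at the same base went from 17.9 to 0.556 FPKM. Here too the lengths are close, 1810 bases for the isoform and 1781 for that transcript.

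The falls were at a pair of genes with very different models. In Prupe.1G073400, at Pp01, 5233619 to 5235729 (minus strand), the total was 170 FPKM without the yeast and 63.4 FPKM with it. A new isoform of 2 exons and 881 bases held 97.2% (96.8% to 97.5%) of the first and 3.80% (2.85% to 4.90%) of the second. The single-exon model of 2111 bases went the other way, from 4.76 to 60.96 FPKM. FPKM is set per length: the fragments assigned to the gene were about 4160 in the control and 3286 in the yeast library, which differ less than the totals. In Prupe.4G180600, at Pp04, 10706498 to 10712265 (minus strand), totals were 35.4 and 47.4 FPKM. The 4 new isoforms together held the whole control total and 32.97% (31.3% to 34.7%) of the yeast total. Among them, those of 7 exons fell, and the isoform of 8 exons went from a listed 0 to 4.03 FPKM. The model of 8 exons went from a listed 0 to 31.8 FPKM.

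The most abundant gene whose share moved lies at Pp03, 21547735 to 21549448 (minus strand), and was chosen after its values were seen. Its total was 10828 FPKM without the yeast and 14399 FPKM with it. In the control the annotated transcripts of 4 and 3 exons had 4981 and 2827 FPKM, and in the yeast library 2165 and 184 FPKM. A new isoform of 5 exons that reaches to 21578744 went from 2895 FPKM to a listed 0. Another of 5 exons that reaches to 21567047 went from a listed 0 to 12014 FPKM, 83.4% of the total. Both run across other annotated genes, and which of the forms is present in the fruit was not tested.

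**Figure D5:**
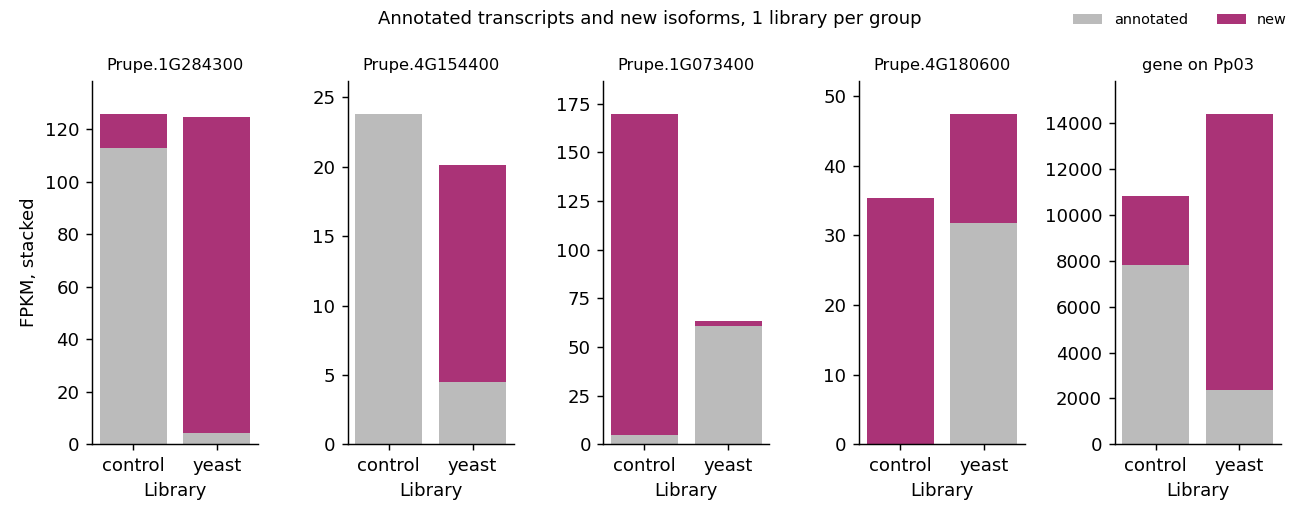
Stacked FPKM of annotated transcripts (grey) and new isoforms (purple) in the control and yeast libraries, for the genes with the 2 largest rises, the 2 largest falls and the most abundant gene past 20 percentage points (Pp03); each panel has its own vertical axis from 0. In Prupe.1G284300 the bars are equally high, 126 and 125 FPKM, and the colours change places.

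In level, the new transcripts differed between the wounds about as often as transcripts in general. Of 3312 new transcripts with 1 FPKM or more in at least 1 library, 191 (5.77%) were higher with the yeast by 1 or more on the log2(FPKM + 1) scale and 158 (4.77%) lower. Same-strand isoforms alone gave 5.59% higher and 4.61% lower of 2969. Over all 22689 transcripts so measured, 6.37% were higher and 5.88% lower. The median difference was 0.10 for the new transcripts and 0.02 for all. In these bulk samples, fewer cells of a type and less RNA per cell cannot be told apart. The totals of genes with a new transcript were higher by 1 or more in 18 of 1816 (0.991%) and lower in 8 (0.441%), beside 0.900% and 0.716% of all 9774 genes.

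Few new transcripts moved between a listed 0 and a clear level, counted singly and whatever the rest of the gene did. In all, 9 new transcripts rose from a listed 0 to 5 FPKM or more with the yeast, and 7 had 5 FPKM or more without it and 0 with it. Of these 16, 14 were same-strand isoforms, and 7 of those reached 10 kb or more beyond their gene. The transcript that led the gene changed from a new to an annotated one in 131 of 1816 genes and from an annotated to a new one in 125. It changed between new ones in 65 and between annotated ones in 20. No counts over all transcripts, or over genes with no new transcript, are given beside these. Whether new transcripts changed in these ways more often than others therefore cannot be told.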

How the data were processed

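The FPKM values and the coverage signal (mean reads per base of a transcript) were deposited by the authors in 1 transcript table per library, with positions, exon numbers and lengths, and FPKM in 1 gene table. The submitters' processing notes name HISAT2 and HTSeq 0.6.1 without saying what each did, and none of the sources used here gives the assembler, genome build or annotation. Identical rows in both tables show 1 merged transcript set, so how reads were divided among overlapping forms could change every share.

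Members and lists were chosen with earlier results of these data known. Shares were computed in Python 3.11.15 with pandas 2.3.3 and called at 20 percentage points. Fragments are coverage times length over 300 bases, the most frequent product at barely covered transcripts. Calls were also run on simulated fragment numbers with known share changes. Each fragment there belonged to its own transcript, so errors in dividing reads among overlapping forms were not covered. Structure was compared per gene, with exact equality of ends. Named genes were, among genes with 20 FPKM or more in both libraries, the 2 largest rises and falls of the summed share, the 6 most abundant led by a new transcript, and, where 1 isoform held 50% or more in both libraries, 2 for each structure class and for most exons gained or lost; some fell in several. The planned lists by product name could not be applied. Alternatives were the FPKM filter, threshold, pseudocount, fragment shares, upper quartile scaling, locus totals and leaving out kinds of new transcript.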

Additional observations from a re-analysis of the deposited data

How the results depend on the processing

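The 58.9% of genes with new transcripts at 50% or more in both libraries became 64.0% with a filter of 1 FPKM, and stayed within its counting interval in the other 7 alternatives, from 57.8% without single-exon isoforms to 60.4% over merged loci. The 109 higher and 123 lower genes became 167 and 187 at 1 FPKM, 25 and 26 at 20 FPKM, 244 and 229 at a threshold of 10 percentage points, and 26 and 31 at 50; fewer or more genes enter or pass there by construction. The 191 higher and 158 lower transcripts became 318 and 236 with a pseudocount of 0.1, 57 and 36 with a pseudocount of 5, and 117 and 81 with a filter of 5 FPKM. In genes over 5 FPKM, 30.2% of same-strand isoforms had fewer exons (34.5% in all), 46.3% were within the range (41.8%) and 13.0% kept both ends (10.7%), and with ends within 10 bases taken as equal 13.5% did; the cause was not tested. Among the alternatives tried for the 4 named identifiers, only the fragment share could change the difference. It was then 85.7 points for Prupe.1G284300, 77.3 for Prupe.4G154400, -91.9 for Prupe.1G073400 and -64.6 for Prupe.4G180600. The other alternatives tried leave these genes as they were by construction, and locus totals were not tried for them. Leaving out transcripts off the strand or under 30 fragments was chosen after seeing the data. No paired analysis was possible because only 1 library stands for each treatment, and so none could be left out.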

Other observations

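New transcripts were spread over the whole genome. Of the genes with 5 FPKM or more in both libraries, 22.2% of 1151 on Pp02 had one and 15.3% of 933 on Pp05, and the other 6 pseudomolecules lay between. The summed share moved by 20 points in 11.7% of such genes on Pp07 and in 15.7% on Pp04, again with the other 6 between. On unplaced scaffolds 3 of 9 genes had a new transcript, with a median share of 99.0% in both libraries.

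Very abundant genes, 46 with a mean total from 1000 FPKM, included 11 (23.9%) with a new transcript, compared with 23.6% of genes from 5 to 20 FPKM. The median summed share of these 11 was 0.889% in the control and 8.79% in the yeast library. Of the new transcripts in genes above the limit, 62 same-strand isoforms had under 30 fragments in both libraries, with median shares of 2.12% and 2.26%. At 1000 fragments or more the medians were 78.4% and 76.5% over 448 isoforms.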
